A study of Homo sapiens with 9 samples.

Results

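The MYC network is a set of related transcription factors that share the partner MAX, and its mRNAs were followed in COR-L279 cells treated with the bromodomain inhibitor JQ1. The genes described are the rows of the deposited normalized count table with the symbols MYC, MYCL, MAX, MXD1, MXD3, MXD4, MXI1, MNT, MLX and MGA. All 10 were present among the 17518 genes of the table, and all 10 passed the filter on low counts that left 17514 genes to test. COR-L279 is a line from human small cell lung cancer that the labels assign to SCLC-N, the subtype marked by the neurogenic factor NEUROD1, with the genotype given as WT. JQ1 occupies the pockets with which BET proteins bind acetylated histones. The 3 groups were DMSO (the vehicle), 0.5 µM JQ1 and 1.5 µM JQ1, all wild type, all harvested after 24 h and each with 3 libraries of total RNA that the labels call biological replicates. Cells of 1 line carry a single genetic background, so the p-values refer to the spread between these cultures.

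MYC and its relative MYCL each pair with MAX, and the pairs bind E-box sequences, chiefly CACGTG, where they recruit coactivators and raise transcription of genes for growth, nucleotide synthesis and ribosome assembly. MXD1, MXD3, MXD4, MXI1 and MNT also pair with MAX, bind the same E-boxes and bring in the SIN3 corepressor, so that they compete with MYC for its partner and its sites. MGA carries a MAX-binding domain beside a T-box and belongs to the repressive complex PRC1.6, whereas MLX is a MAX-like hub that pairs with the glucose-responsive factors MondoA (MLXIP) and ChREBP (MLXIPL) and with some of the MXD proteins. MYC is the best studied gene whose transcription depends on BET proteins in blood cancers, and MYC family genes are recurrently amplified in small cell lung cancer.

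Promoter sequences of the network genes are shown because the proteins of the network bind the E-box. The RefSeq promoter table (GRCh38.p14, windows of 300 bases from 250 bases before to 50 bases after a transcription start) held 14 promoters for 9 of the 10 genes, MYC being the gene not used here. The sequence CACGTG, which is its own reverse complement, was present in 3 of these 14 windows, those of MXD4, MNT and MLX, compared with 7.26% of all 35116 promoter windows. It began 238 bases before the start in MXD4, 193 bases before it in MNT and 50 bases before it in MLX. The 250 bases before the start of MXD4 (chr4:2262110-2262359, minus strand), the gene whose mRNA rose most, and of MYCL (chr1:39901918-39902167, minus strand), which rose without CACGTG in this window, are printed 5′ to 3′ on the gene's own strand. For MNT (chr17:2401221-2401280, minus strand) and MLX (chr17:42567023-42567082, plus strand), whose mRNAs fell, 60 bases around the match are given, and capitals mark CACGTG.
MXD4: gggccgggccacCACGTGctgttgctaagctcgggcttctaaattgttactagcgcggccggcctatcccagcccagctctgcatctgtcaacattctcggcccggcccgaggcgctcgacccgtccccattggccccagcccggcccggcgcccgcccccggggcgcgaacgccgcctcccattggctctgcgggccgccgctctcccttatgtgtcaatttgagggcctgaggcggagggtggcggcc
MYCL: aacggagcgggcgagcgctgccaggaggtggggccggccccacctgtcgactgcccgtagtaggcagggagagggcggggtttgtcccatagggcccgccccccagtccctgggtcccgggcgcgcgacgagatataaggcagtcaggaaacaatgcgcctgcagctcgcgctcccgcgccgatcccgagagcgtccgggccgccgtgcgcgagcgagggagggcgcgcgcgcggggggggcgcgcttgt
MNT: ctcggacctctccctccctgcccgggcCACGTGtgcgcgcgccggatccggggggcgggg
MLX: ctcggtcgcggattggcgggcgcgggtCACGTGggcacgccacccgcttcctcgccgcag
The 3 genes with a match did not move in 1 direction, since MXD4 mRNA rose while MNT and MLX mRNA fell. The variant CAGATG or its reverse complement CATCTG, an E-box that neurogenic bHLH factors such as NEUROD1 bind, was present in the window of MXD4 alone among the 14, compared with 14.7% of all windows. A match describes letters in a window and is not evidence that a protein binds there.

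The libraries held between 60721187 and 88482001 reads in genes, and expression is given as normalized counts, the authors' read counts divided by 1 size factor per library. Library values follow the replicate numbers 1, 2 and 3. The cells matched their label: NEUROD1 stood at 264 to 271 FPKM (reads scaled to gene length and depth) in the DMSO libraries and INSM1 at 355 to 367, while POU2F3 was at most 0.1 FPKM. The summed immune markers PTPRC, CD3E and CD68 reached at most 0.47 FPKM, nearly all of it CD68, and the endothelial marker VWF was at 0 in every library. The noncoding RNA H19 had 1563 normalized counts in replicate 3 of the 0.5 µM group and 2071 and 1476 in replicates 1 and 2 of the 1.5 µM group, whereas the 3 remaining JQ1 libraries had 1.04 to 8.22 and the DMSO libraries 63.8 to 82.8. SLC2A3, a glucose transporter, marked the same 3 libraries, called the H19-high libraries from here on. The same 3 libraries held the fibroblast markers COL3A1 (2.74 to 3.05 FPKM, against 0.08 to 0.5 in the other libraries) and DCN (0.4 to 0.41, against at most 0.02), whereas COL1A1 was at 0.24 to 0.48 throughout. The 3 fibroblast markers summed to 3.55 to 3.78 FPKM in them, against 0.48 to 0.55 in the remaining JQ1 libraries and 0.59 to 0.98 with DMSO. YAP1, a marker of cells that are not neuroendocrine, reached 0.48 to 0.59 in them against at most 0.07. VIM, another such marker, was at 5.17 to 5.66 in them, 4.64 to 4.96 in the remaining JQ1 libraries and 10.1 to 10.7 with DMSO. REST, a further such marker, was at 0.13 to 0.45 in them and 0.08 to 0.24 in the other libraries. The part of cells with these markers in the results was not tested. Replicate 2 of the 0.5 µM group also stood apart: it was the highest or the lowest library of its group for 10 of the 10 network genes and for 82.9% of all tested genes. Each other library was so for 3 to 8 of the network genes and for 53.5% to 72.9% of all tested genes. Where leaving out the H19-high libraries or this replicate ended a call on a network gene or moved its value by over 1.5 times, the value without them is given.

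Each of the 10 network genes differed from DMSO at each dose, and the directions divided the network by gene and not by role. MYCL, MXD1, MXD3, MXD4 and MGA rose at 0.5 µM and at 1.5 µM, while MYC, MAX, MXI1, MNT and MLX fell. The test was limma's moderated test with Benjamini-Hochberg adjustment over all 17514 genes, with 0.05 as the threshold. Most genes of these cells passed it: 70% at 0.5 µM (35.3% higher, 34.7% lower) and 73.1% at 1.5 µM (36.9% higher, 36.2% lower). Passing alone therefore does not distinguish the network from other genes, and the sizes and directions are what the following values describe. The groups did not overlap for 9 of the 10 genes at 0.5 µM, where 72.6% of all genes did not overlap, and for 10 of 10 at 1.5 µM, where the share of all genes was 81.7%. The median log2 fold change over the 10 genes was 0.022 at 0.5 µM and 0.13 at 1.5 µM, beside -0.010 and -0.0030 over all tested genes. Both comparisons use the same DMSO libraries, so they do not support each other independently.

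**Figure D1:**
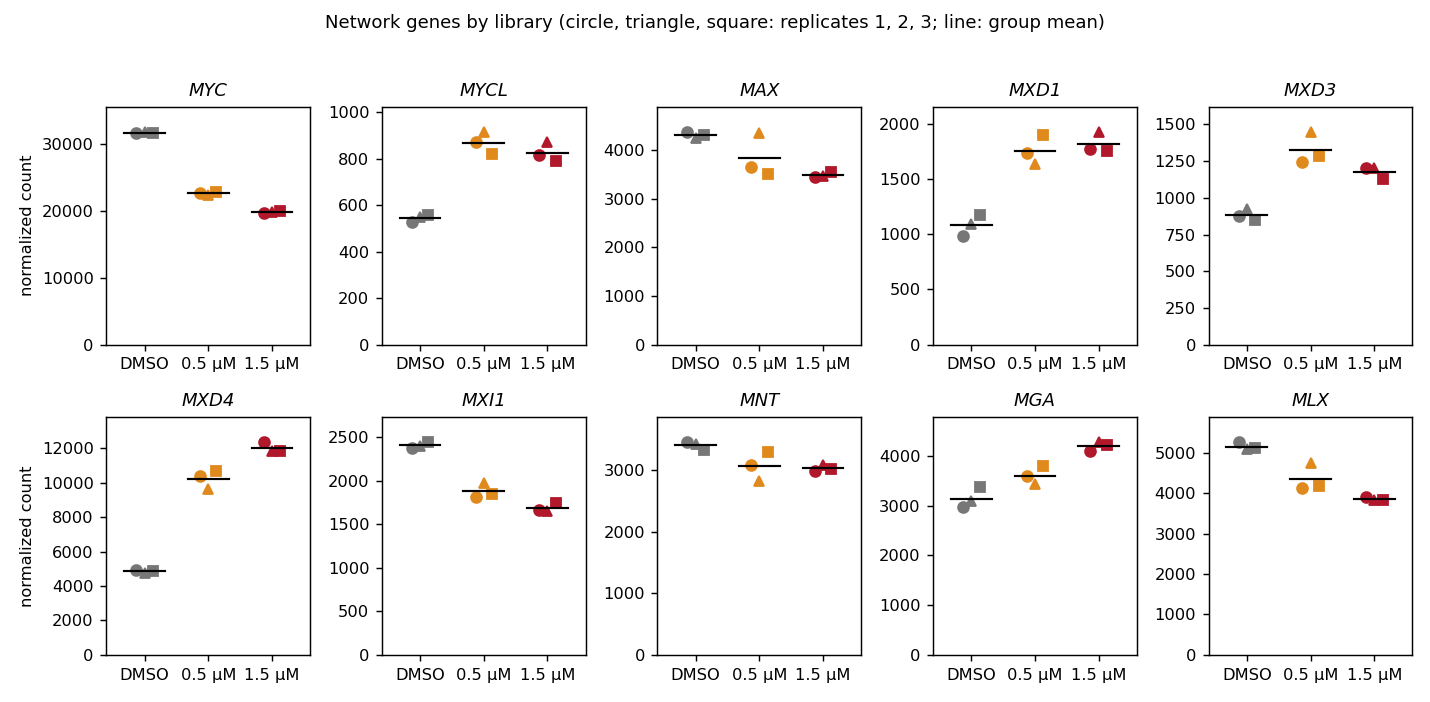
Normalized counts of the 10 network genes in each library at DMSO, 0.5 µM and 1.5 µM JQ1 (circle, triangle and square for replicates 1, 2 and 3, line for the group mean, each vertical axis starting at 0). MXD4 averages 4853, 10231 and 12007 normalized counts across the doses, MYC averages 31636, 22559 and 19819, and the triangle of the 0.5 µM group is its highest or lowest point in every panel.

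MYC (ENSG00000136997.10, chromosome 8), the main activator of the network, fell with dose. MYC had 31633, 31714 and 31562 normalized counts in DMSO, 22651, 22313 and 22715 at 0.5 µM, and 19647, 19846 and 19962 at 1.5 µM. The 3 groups were separate, with every library at 1.5 µM below every library at 0.5 µM and those below every DMSO library, and the spread within a group was small (coefficients of variation of 0.241%, 0.957% and 0.804% in that order). The log2 fold change was -0.49 ± 0.024 (SE, limma adjusted p = 3.51e-08) at 0.5 µM and -0.67 ± 0.024 (adjusted p = 2.33e-09) at 1.5 µM. MYC at 1.5 µM stood at 0.626 times its DMSO level. Among all tested genes, -0.67 lay at percentile 18.3 of the log2 fold changes at 1.5 µM. MYC also differed between the doses, at 19819 ± 159 normalized counts at 1.5 µM against 22559 ± 216 at 0.5 µM (SD, n = 3 each), a log2 fold change of -0.19 ± 0.024 (adjusted p = 0.00128). Without the 3 H19-high libraries, which leaves 1 library at 1.5 µM, that value was -0.17 and did not pass (adjusted p = 0.187).

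The noncoding genes on either side of MYC were also lower after JQ1. PVT1, a long noncoding RNA whose locus lies next to MYC and carries enhancers of it, fell to 143 ± 8.48 normalized counts at 1.5 µM, against 274 ± 16.8 in DMSO (log2 fold change -0.93, limma adjusted p = 7.31e-06). CASC11, a noncoding RNA on the opposite strand, had 58.3 ± 14.4 normalized counts at 1.5 µM against 110 ± 6.37 in DMSO, a log2 fold change of -0.93. At 0.5 µM its value was -0.67 (adjusted p = 0.0248), and that call was lost without any single DMSO library or without 0.5 µM replicate 3 (adjusted p up to 0.0901).

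MYCL (ENSG00000116990.9, chromosome 1), a MYC family gene found amplified in small cell lung cancer, moved opposite to MYC but from a low level. MYCL had 527, 550 and 558 normalized counts in DMSO, 871, 916 and 820.3 at 0.5 µM, and 815, 871 and 789 at 1.5 µM. Every JQ1 library lay above every DMSO library. In log2 terms MYCL changed by 0.67 ± 0.060 (SE, limma adjusted p = 3.02e-06) at 0.5 µM and 0.60 ± 0.060 (adjusted p = 5.86e-06) at 1.5 µM. MYCL showed no difference past the test between the doses (-0.07, 95% interval -0.21 to 0.059, adjusted p = 0.437), and their libraries overlapped. That value was -0.18 without the 3 H19-high libraries and -0.12 to -0.04 as single libraries were left out, among them -0.04 without 0.5 µM replicate 2 or 1.5 µM replicate 3, -0.12 without 0.5 µM replicate 3 and -0.11 without 1.5 µM replicate 2. Its neighbours on either side moved the other way: TRIT1, a tRNA-modifying enzyme, had log2 fold changes of -0.24 at 0.5 µM and -0.32 at 1.5 µM, and MFSD2A, a lipid transporter, had -0.29 and -0.35. MYCN, the other family gene, was at most 0.03 FPKM in every library and was not tested.

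MYC made up nearly all the mRNA of the MYC family on a scale per transcript length, and the rise of MYCL did not offset the fall of MYC. In FPKM, which can be compared between genes, MYC averaged 223 in DMSO, 154 at 0.5 µM and 134 at 1.5 µM. MYCL averaged 3.21 in DMSO, 4.95 at 0.5 µM and 4.59 at 1.5 µM. The 2 genes summed to 226.5 ± 0.767 FPKM in DMSO, 159 ± 1.35 at 0.5 µM and 138 ± 0.548 at 1.5 µM (SD, n = 3 each). MYCL contributed 1.42% of that sum in DMSO, 3.12% at 0.5 µM and 3.32% at 1.5 µM.

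MAX (ENSG00000125952.14, chromosome 14), the partner shared by MYC, MYCL, the MXD proteins, MNT and MGA, changed less than MYC. MAX had 4368, 4237 and 4300 normalized counts in DMSO, 3651, 4347 and 3507 at 0.5 µM, and 3447, 3465 and 3555 at 1.5 µM. All 1.5 µM libraries were below all DMSO libraries, whereas 0.5 µM replicate 2 lay within the DMSO range and its 2 companions below it. At 1.5 µM the log2 fold change was -0.30 ± 0.067 (SE, limma adjusted p = 0.00192), and on FPKM values it was -0.23 and did not pass (adjusted p = 0.0764). At 0.5 µM the value was -0.17 ± 0.067 (adjusted p = 0.0401). That call was lost under 12 of 23 alternatives, with adjusted p between 7.3e-06 and 0.631. It was -0.27 (adjusted p = 7.79e-06) without 0.5 µM replicate 2 and -0.11 (adjusted p = 0.145) without replicate 3, and it was also lost when replicate 1 of that group, any 1 DMSO library or any 1 library of the 1.5 µM group was left out. Without the 3 H19-high libraries the 0.5 µM value was -0.11 (adjusted p = 0.228). MAX did not pass between the doses (-0.13, 95% interval -0.28 to 0.018, adjusted p = 0.229), and that difference was -0.04 without 0.5 µM replicate 2.

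FNTB, a farnesyltransferase subunit annotated over MAX on the opposite strand, had log2 fold changes of -0.45 at 0.5 µM and -0.51 at 1.5 µM. Whether the counting used strand is not stated in the sources used here, so reads of MAX and FNTB may not be fully separated and the value of MAX is uncertain to that extent. RAB15, the next gene on the same strand as MAX, had -0.23 at 1.5 µM and -0.11 at 0.5 µM, a value whose call was kept under 16 of 23 alternatives (adjusted p up to 0.13) and lost without DMSO replicate 2 or 3 or without 0.5 µM replicate 1 or 3.

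The MXD group split into genes that rose and a gene that fell. MXD4 (ENSG00000123933.10, chromosome 4), a repressor that pairs with MAX and is found mainly in differentiated cells, showed the largest change of the 10 genes in both comparisons with DMSO. MXD4 had 4911, 4746 and 4902 normalized counts in DMSO, 10381, 9659.8 and 10653 at 0.5 µM, and 12345, 11847 and 11829 at 1.5 µM. The 3 groups did not overlap, and the gap between DMSO and 0.5 µM was wider than the gap between the doses. MXD4 was 2.11-fold higher at 0.5 µM (log2 fold change 1.07 ± 0.040 SE, limma adjusted p = 5.86e-09) and 2.47-fold higher at 1.5 µM (1.31 ± 0.040, adjusted p = 8.61e-10). Its change at 1.5 µM lay at percentile 95.98 of all tested genes. Between the doses MXD4 reached 12007 ± 293 normalized counts at 1.5 µM against 10231 ± 513 at 0.5 µM (0.23 ± 0.040, adjusted p = 0.00525). Without the 3 H19-high libraries that difference was 0.24 and did not pass (adjusted p = 0.167). The genes next to MXD4 rose as well: HAUS3, a subunit of the spindle complex augmin, by log2 fold changes of 0.71 at 0.5 µM and 0.85 at 1.5 µM, and ZFYVE28, a regulator of receptor trafficking, by 0.84 and 0.90.

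MXD1 (ENSG00000059728.6, chromosome 2), the first of the MXD proteins to be described as a MAX partner, rose by a similar amount at either dose. MXD1 had 981, 1089 and 1171 normalized counts in DMSO, 1739, 1632 and 1895 at 0.5 µM, and 1771, 1925 and 1753 at 1.5 µM. Every JQ1 library was above every DMSO library, and the JQ1 groups overlapped with each other. In log2 terms MXD1 changed by 0.70 ± 0.075 (SE, limma adjusted p = 1.15e-05) at 0.5 µM and 0.75 ± 0.075 (adjusted p = 5.22e-06) at 1.5 µM. The difference between the doses was 0.05 (95% interval -0.12 to 0.22, adjusted p = 0.684), and it was -0.000471 without 0.5 µM replicate 2, 0.11 without 0.5 µM replicate 3 and 0.0083 without 1.5 µM replicate 2. SNRNP27, a splicing protein gene annotated over part of MXD1 on the same strand, had log2 fold changes of 0.45 and 0.33, so reads in the shared stretch could belong to either gene.

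MXD3 (ENSG00000213347.6, chromosome 5), the member of the group linked to proliferating cells in S phase, rose as well, and its mean was higher at the lower dose. MXD3 had 873, 923 and 847 normalized counts in DMSO, 1246, 1449 and 1283 at 0.5 µM, and 1205, 1202 and 1129 at 1.5 µM. All JQ1 libraries were above the DMSO libraries, and all 1.5 µM libraries were below the 0.5 µM libraries. For MXD3 the log2 fold change was 0.59 ± 0.064 (SE, limma adjusted p = 1.27e-05) at 0.5 µM and 0.42 ± 0.064 (adjusted p = 0.000135) at 1.5 µM. The difference between the doses did not pass the test (-0.17, 95% interval -0.31 to -0.025, adjusted p = 0.116), although the groups did not overlap, as held for 33.7% of all genes. It was -0.10 without 0.5 µM replicate 2. RAB24, which overlaps MXD3 on the same strand, rose by 0.36 and 0.30, and PRELID1, which overlaps it on the opposite strand, fell by 0.34 and 0.44 on the log2 scale, so the value of MXD3 is uncertain as far as reads were shared.

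MXI1 (ENSG00000119950.16, chromosome 10), a MAX partner and MYC antagonist of the same family, fell. MXI1 had 2380, 2399.6 and 2441 normalized counts in DMSO, 1811, 1969.8 and 1852 at 0.5 µM, and 1663, 1648 and 1744 at 1.5 µM. The groups did not overlap and were ordered by dose. For MXI1 the log2 fold change was -0.36 ± 0.043 (SE, limma adjusted p = 2.55e-05) at 0.5 µM and -0.51 ± 0.043 (adjusted p = 1.2e-06) at 1.5 µM. Between the doses it was -0.16 ± 0.043 (adjusted p = 0.0395), a call that was lost under 12 of 23 alternatives, among them each DMSO library left out in turn, 0.5 µM replicate 3 left out (adjusted p = 0.0543) and each 1.5 µM library left out (adjusted p = 0.113, 0.142 and 0.0612). The neighbouring genes diverged, ADD3, a membrane skeleton protein, with 0.81 and 0.88, and SMNDC1, a splicing factor, with -0.29 and -0.36.

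MNT (ENSG00000070444.10, chromosome 17), the broadly expressed MAX partner that represses MYC targets in growing cells, showed the smallest change of the 10 genes on normalized counts in either comparison with DMSO. MNT had 3450.4, 3429 and 3331 normalized counts in DMSO, 3088, 2815 and 3290.03 at 0.5 µM, and 2988, 3087 and 3016 at 1.5 µM. All JQ1 libraries were below the DMSO libraries, but 0.5 µM replicate 3 came close to the lowest of them. The log2 fold change was -0.15 ± 0.052 (SE, limma adjusted p = 0.021) at 0.5 µM and -0.17 ± 0.052 (adjusted p = 0.0133) at 1.5 µM. The call at 0.5 µM was lost without DMSO replicate 1 (adjusted p = 0.0633) or DMSO replicate 2 (adjusted p = 0.0608), and its size was -0.09 without 0.5 µM replicate 2. The call at 1.5 µM was lost without the 3 H19-high libraries (-0.17, adjusted p = 0.0626), and on FPKM values it was -0.30 (adjusted p = 0.00514). Between the doses MNT differed by -0.01 (95% interval -0.13 to 0.10, adjusted p = 0.891), and the sign turned without 0.5 µM replicate 3 (0.04) or without the 3 libraries (0.03).

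**Figure D2:**
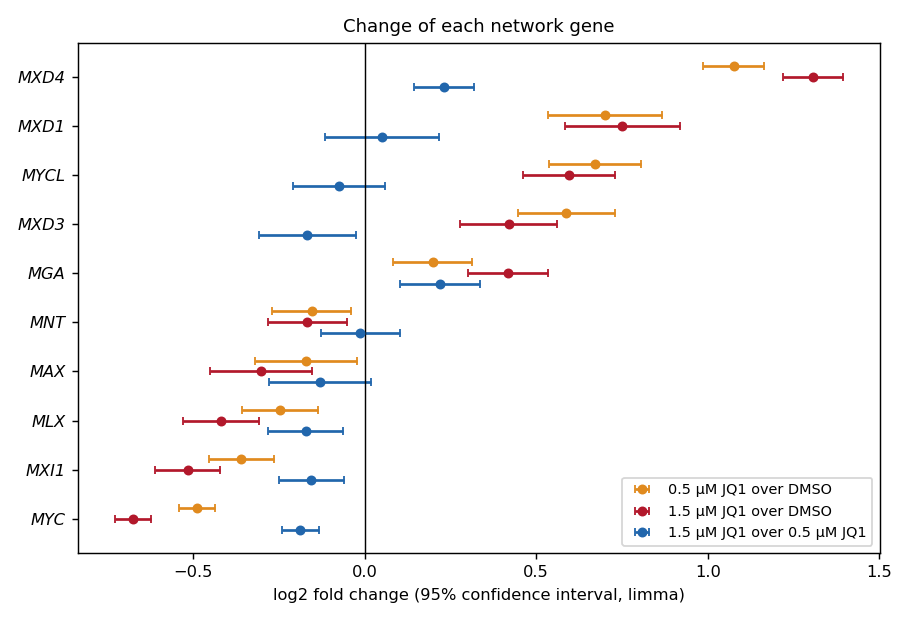
Log2 fold changes of the 10 network genes for 0.5 µM JQ1 over DMSO, 1.5 µM JQ1 over DMSO and 1.5 µM over 0.5 µM JQ1 (points, with 95% confidence intervals from limma). MXD4 has the largest rise (1.31 at 1.5 µM) and MYC the largest fall (-0.67), and the intervals between the doses include 0 for MYCL, MAX, MXD1 and MNT.

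MGA (ENSG00000174197.12, chromosome 15), the MAX partner of PRC1.6, rose by steps of similar size from DMSO to 0.5 µM and from there to 1.5 µM. MGA had 2967, 3091 and 3368 normalized counts in DMSO, 3586, 3429 and 3794 at 0.5 µM, and 4105, 4270.3 and 4210.15 at 1.5 µM. The groups did not overlap. The log2 fold change was 0.42 ± 0.052 (SE, limma adjusted p = 3.06e-05) at 1.5 µM. At 0.5 µM it was 0.20 ± 0.052 (adjusted p = 0.0061), and it did not pass on FPKM values (0.06, adjusted p = 0.463) or without the 3 H19-high libraries (0.16, adjusted p = 0.0608). Between the doses it was 0.22 ± 0.052 (adjusted p = 0.0229). That call was lost on FPKM values (adjusted p = 0.0592), without trend (adjusted p = 0.0564), without 0.5 µM replicate 1 (adjusted p = 0.0569), without any 1 library of the 1.5 µM group (adjusted p = 0.0515, 0.0903 and 0.0809) and without the 3 libraries (adjusted p = 0.236). The genes next to MGA moved far more and in opposite directions: TYRO3, a receptor tyrosine kinase, had log2 fold changes of -2.35 and -2.65, and MAPKBP1, a scaffold of MAP kinase signalling, had 1.40 and 1.68.

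MLX (ENSG00000108788.7, chromosome 17), the hub of the nutrient-sensing branch, fell with dose. MLX had 5256, 5081 and 5117 normalized counts in DMSO, 4136, 4741 and 4171 at 0.5 µM, and 3909.9, 3820.4 and 3833 at 1.5 µM. The groups did not overlap, although 0.5 µM replicate 2 lay well above its companions. The log2 fold change was -0.25 ± 0.049 (SE, limma adjusted p = 0.00112) at 0.5 µM and -0.42 ± 0.049 (adjusted p = 2.01e-05) at 1.5 µM. The difference between the doses was -0.17 (adjusted p = 0.0477). It was -0.11 without 0.5 µM replicate 2 (adjusted p = 0.0208), and the call was lost without any 1 DMSO library (adjusted p = 0.0672, 0.0796 and 0.0712) or any 1 library of the 1.5 µM group (adjusted p = 0.0974, 0.143 and 0.139). PSMC3IP, a recombination cofactor annotated over MLX on the opposite strand, rose by log2 fold changes of 0.36 and 0.30, which makes the value of MLX uncertain as far as strands were not separated. At 1.5 µM the PSMC3IP value did not pass on FPKM (adjusted p = 0.155).

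The partners of MLX moved apart. MLXIPL, which encodes ChREBP, a carbohydrate-responsive factor best known from liver, had 2141, 1988 and 1937 normalized counts in DMSO, 1099.7, 1214 and 1329.5 at 0.5 µM, and 964, 1043 and 937 at 1.5 µM. All groups were separate, and the log2 fold change was -0.74 ± 0.073 (SE, limma adjusted p = 6.24e-06) at 0.5 µM and -1.04 ± 0.073 (adjusted p = 3.16e-07) at 1.5 µM. MLXIP, which encodes MondoA, averaged 9088 ± 83.8 normalized counts at 1.5 µM and 7520.4 ± 256 in DMSO (SD, n = 3 each; log2 fold change 0.27, adjusted p = 0.00102). At 0.5 µM MLXIP had 0.14 (adjusted p = 0.0395) with overlapping groups, which kept its side of the threshold under 12 of 23 alternatives and was 0.09 without 0.5 µM replicate 3 (adjusted p = 0.143).

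The remaining neighbours of the network genes moved in either direction. METTL16, an RNA methyltransferase next to MNT, had log2 fold changes of -0.72 at 0.5 µM and -0.79 at 1.5 µM, beside -0.15 and -0.17 for MNT. SGSM2, on its other side, had 0.09 and 0.04, and both values had a negative sign on FPKM. Next to MXD1, GMCL1 had 0.51 and 0.54 and ASPRV1, a skin protease gene with few reads, -0.99 and -1.26. Next to MXD3, the methyltransferase NSD1 had -0.27 and -0.31 and the lectin LMAN2 -0.24 and -0.35, opposite to MXD3. Next to MAX, the fucosyltransferase FUT8 had 0.55 and 0.72, opposite to MAX, and the readthrough gene CHURC1-FNTB, which overlaps MAX on the opposite strand at 7.22 to 75.7 normalized counts, did not pass at either dose (adjusted p = 0.959 and 0.117). Next to MLX, COASY, an enzyme of coenzyme A synthesis, had -0.18 and -0.16, and RETREG3, a receptor of endoplasmic reticulum turnover, 0.38 and 0.68. RETREG3 had 4294 normalized counts in 0.5 µM replicate 2 against 6662 and 6615 in replicates 1 and 3, and its call at 0.5 µM was kept under 13 of 23 alternatives: it was 0.59 without replicate 2 and lost without 0.5 µM replicate 1 or 3 or any 1 DMSO library (adjusted p up to 0.17 over the alternatives).

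Between the doses, 2 of the 10 network genes were higher at 1.5 µM than at 0.5 µM (MXD4 and MGA), 3 were lower (MYC, MXI1 and MLX) and 5 did not pass. Of all tested genes 12.7% passed, 4.66% higher and 8.09% lower. The share of the 1.5 µM log2 change that was already present at 0.5 µM varied among the genes, from 47.3% for MGA, 56.9% for MAX and 58.98% for MLX to 72.3% for MYC and 82.3% for MXD4, while MYCL and MXD3 exceeded it at 113% and 140%. MXI1 had 69.7%, MNT 92.2% and MXD1 93.2%. The share of MAX was 87.8% without 0.5 µM replicate 2 and 36.6% without 0.5 µM replicate 3. For MGA the same removals gave 55.7% and 38.3%, and for MNT 56.5% and 124%. MLX had 74.2% without 0.5 µM replicate 2 and 50.7% without 0.5 µM replicate 1, so the order of the genes by this share is not settled. Without the 3 H19-high libraries, which leaves 2 libraries at 0.5 µM and 1 at 1.5 µM and calls 90 genes in place of 2233, the log2 differences were -0.17 for MYC, 0.24 for MXD4, -0.12 for MXI1, -0.21 for MLX and 0.26 for MGA. All 5 kept their sign and moved by less than 1.5 times, and none passed the test (adjusted p = 0.187 for MYC, 0.167 for MXD4, 0.466 for MXI1, 0.316 for MLX and 0.236 for MGA).

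Set per transcript length, the order of the network mRNAs changed through MXD4. In DMSO the order of mean FPKM was MYC (223), MAX (46.3), MLX (36.2), MXD4 (21.7), MXI1 (15.8), MNT (14.7), MXD3 (11.95), MGA (4.91), MYCL (3.21) and MXD1 (2.93). Neighbours in that order were separate in 7 of 9 pairs, with MXI1 and MNT, and MYCL and MXD1, overlapping. At 1.5 µM MXD4 (48.1 FPKM) was second behind MYC (134), above MAX (39.4) and MLX (26.3), and its lowest library (46.9) exceeded the highest library of MAX (39.8). At 0.5 µM MXD4 (42.2) lay within the range of MAX (38.9 to 54, the top value from replicate 2). MXD3 passed MXI1 and MNT, with 16.9 FPKM at 1.5 µM beside 10.6 for MXI1 and 11.9 for MNT. Ranked among the genes with normalized counts, the FPKM of MYC stood at percentile 97.8 in DMSO, 96.6 at 0.5 µM and 96.3 at 1.5 µM.

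**Figure D3:**
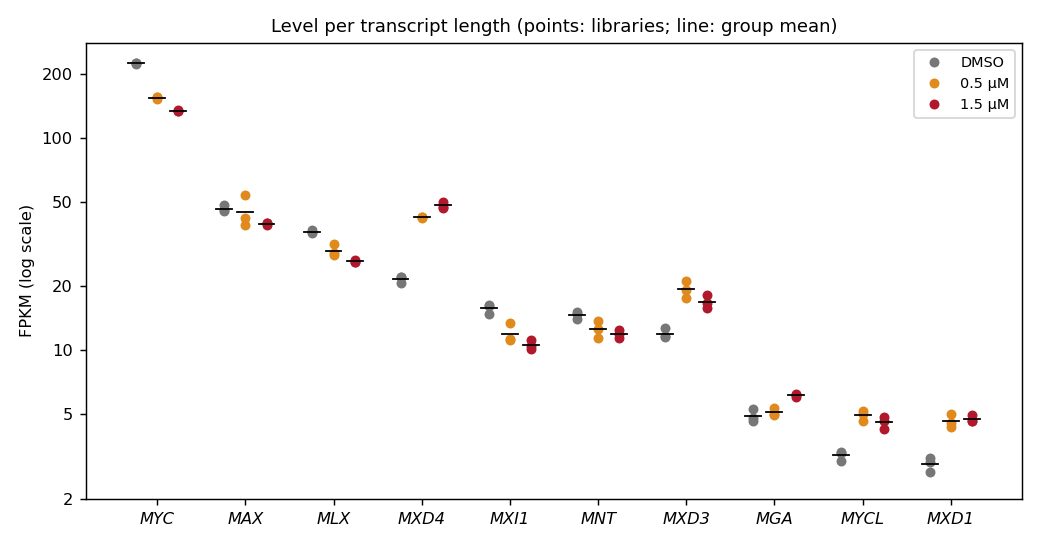
FPKM of the 10 network genes on a log axis in DMSO, 0.5 µM JQ1 and 1.5 µM JQ1 (points for libraries, lines for group means), ordered by their mean in DMSO. MYC stays on top in all groups (223, 154 and 134), and MXD4 passes MLX and then MAX as it reaches 48.1 at 1.5 µM.

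The balance between antagonist and activator mRNA was described by a ratio within each library, the summed FPKM of MXD1, MXD3, MXD4, MXI1, MNT and MGA over that of MYC and MYCL. The ratio was 0.312, 0.320 and 0.321 in DMSO, 0.591, 0.619 and 0.598 at 0.5 µM, and 0.720, 0.721 and 0.696 at 1.5 µM. The groups were separate and ordered by dose, with means of 0.318 ± 0.00493, 0.603 ± 0.0147 and 0.712 ± 0.0140 (SD, n = 3 each). Both terms moved: the antagonist sum was 71.9 ± 0.959 FPKM in DMSO, 95.8 ± 1.53 at 0.5 µM and 98.4 ± 1.59 at 1.5 µM, while the sum of MYC and MYCL dropped as given above. MXD4 carried the rise of the antagonist sum, being 30.2% of it in DMSO, 44.0% at 0.5 µM and 48.8% at 1.5 µM. The ratio of MXD4 to MYC alone was 0.0973 in DMSO, 0.274 at 0.5 µM and 0.360 at 1.5 µM. MYC over MAX was 4.82 ± 0.168 in DMSO, 3.51 ± 0.607 at 0.5 µM (2.82 in replicate 2) and 3.39 ± 0.0589 at 1.5 µM. These are ratios of mRNA and not of protein, they receive no test, and the members were chosen with earlier values in view. In bulk RNA, fewer cells with a transcript cannot be told apart from less of it per cell.

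**Figure D4:**
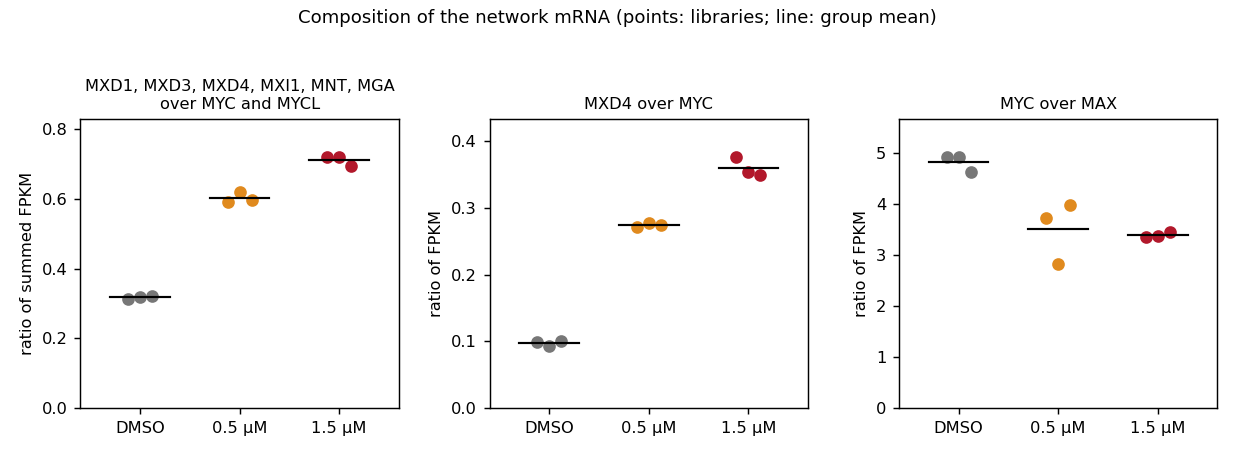
Ratios of FPKM within each library (points) with group means (lines) at DMSO, 0.5 µM and 1.5 µM JQ1, each axis starting at 0: summed antagonists over MYC and MYCL, MXD4 over MYC, and MYC over MAX. The antagonist ratio averages 0.318, 0.603 and 0.712 across the doses with no overlap between groups, and MYC over MAX is lowest in 0.5 µM replicate 2 at 2.82.

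The genes whose profile over the 9 libraries was most like that of a network gene were found by the Euclidean distance between log2 values centred on each gene's mean, among genes with a mean of at least 100 normalized counts. Genes whose symbols are clone names were passed over. For MYC the 3 nearest were CDC42SE1 (0.0415), CIZ1 (0.0512) and GRAMD1A (0.0583). MYCL was nearest to ZMAT4 (0.101), PANK1 (0.135) and USP40 (0.137), and MXD4 to HS6ST1 (0.0921), POLG (0.0947) and AKAP3 (0.0969). CDC42SE1, a small effector of CDC42, had log2 fold changes of -0.49 and -0.69, beside -0.49 and -0.67 for MYC. The likeness is over 9 libraries that share the dose groups and is given as a description.

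Genes that MYC is known to activate were mostly lower. Of 24 nucleolar and ribosome assembly genes, 20 were lower and 0 higher at 0.5 µM, and 22 were lower and 1 (UBTF) higher at 1.5 µM, beside 34.7% and 36.2% of all tested genes lower. The median log2 fold changes were -0.53 and -0.54 beside -0.010 and -0.0030 over all tested genes. RRS1, a ribosome biogenesis factor, had 1310 ± 13.0 normalized counts at 1.5 µM against 3148 ± 72.9 in DMSO (log2 fold change -1.26, limma adjusted p = 2.02e-09). NOP16 (-1.45) and WDR74 (-1.25), which also act in ribosome assembly, were similar at 1.5 µM. Of 38 growth and metabolism genes, 29 fell and 6 rose at each dose, with medians of -0.33 and -0.37, against the same shares and medians of all genes. BCAT1, an aminotransferase of branched-chain amino acids, fell by 1.27 and 1.51 on the log2 scale, CCND2, a D-type cyclin, by 2.94 and 2.62, and TERT, the telomerase catalytic subunit, by 1.26 and 1.55. The 6 genes that were higher at 1.5 µM included ODC1, a classical MYC target, PKM and PTMA.

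Genes that MYC is known to repress did not move together. Of 16 listed genes 14 were tested, and 8 were higher and 5 lower at 0.5 µM, and 6 were higher and 5 lower at 1.5 µM (medians 0.23 and 0.088). Of all tested genes, 35.3% were higher and 34.7% lower at 0.5 µM, and 36.9% and 36.2% at 1.5 µM. The cell cycle inhibitors CDKN1B and CDKN2B were among the 6 that rose at 1.5 µM. The largest changes were downward: GADD45G, a stress-response gene, had log2 fold changes of -1.56 and -2.15, the matrix protein gene THBS1 -1.90 and -1.90, and NDRG2 -0.73 and -0.84.

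The machinery around the antagonists held higher and lower genes, to be read beside the 70% of all genes that passed at 0.5 µM and 73.1% at 1.5 µM. Of 14 genes of the SIN3 corepressor that MXD proteins and MNT recruit, 6 were higher and 3 lower at 0.5 µM, and 7 were higher and 4 lower at 1.5 µM (medians 0.12 and 0.091). SIN3A, the scaffold that the MXD proteins touch directly, had 5100 ± 215 normalized counts at 1.5 µM against 3456 ± 224 in DMSO (log2 fold change 0.56, limma adjusted p = 2.1e-06). ING1, a histone-mark reader of the complex, rose by 0.75 at 1.5 µM and ARID4A fell by 0.67 on the log2 scale. Of 11 PRC1.6 genes, 4 were higher and 5 lower at 0.5 µM, and 4 were higher and 6 lower at 1.5 µM (medians -0.083 and -0.17). In that complex L3MBTL2, a reader protein, fell to 1630 ± 69.9 normalized counts at 1.5 µM, against 2713 ± 35.4 in DMSO (-0.74), while the ubiquitin ligase RNF2 (0.64) and its partner RYBP (0.62) rose.

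Germline genes that MGA, MAX and E2F6 occupy in mouse cells were mostly silent. Of 20 such genes, 14 were not tested and reached at most 0.3 FPKM. Of the 6 tested genes, 4 were higher and 2 lower at either dose, with medians of 0.63 and 0.75, beside 70% and 73.1% of all genes past the test in either direction. TEX14, a germ cell bridge protein, averaged 41.7 ± 6.15 normalized counts in DMSO, 429 ± 65.1 at 0.5 µM and 695 ± 28.1 at 1.5 µM. MOV10L1, a helicase of the piRNA pathway, averaged 62.4 ± 7.57 in DMSO, 9.44 ± 4.44 at 0.5 µM and 5.25 ± 2.65 at 1.5 µM, and TAF7L fell by 1.11 on the log2 scale at 1.5 µM. The level of MGA itself rose 1.34-fold at 1.5 µM, and a link between it and these genes was not tested.

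Among the targets of MLX with MondoA and ChREBP, the arrestin genes moved most. TXNIP, an inhibitor of glucose uptake and the best known MondoA target, had 1581, 1574 and 1606 normalized counts in DMSO, 4325, 4413 and 4454 at 0.5 µM, and 5324, 5496 and 5651 at 1.5 µM. The 3 groups were separate, with log2 fold changes of 1.47 ± 0.033 (SE, limma adjusted p = 6.7e-10) at 0.5 µM and 1.79 ± 0.033 (adjusted p = 1.1e-10) at 1.5 µM. ARRDC4, its paralog, had 1.19 and 1.42. Of the 6 tested genes of this list, 3 were higher and 0 lower at 0.5 µM, and 4 were higher and 1 (PFKFB3, -0.31, adjusted p = 0.0256) lower at 1.5 µM (medians 0.087 and 0.19), beside 70% and 73.1% of all genes past the test. The PFKFB3 call was lost under 5 of 23 alternatives (adjusted p up to 0.134), among them DMSO replicate 3, 1.5 µM replicate 1 or 1.5 µM replicate 3 left out. PKLR was not tested, and KLF10 did not pass.

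Genes that act on the MYC protein or its mRNA showed no shared direction, and the counts are to be read beside the 70% and 73.1% of all genes that passed. Of 12 MYC cofactors, 4 were higher and 3 lower at 0.5 µM, and 5 were higher and 4 lower at 1.5 µM (medians 0.017 and 0.038). The acetyltransferase KAT2A had 3542 ± 3.55 normalized counts at 1.5 µM against 7322 ± 66.1 in DMSO (log2 fold change -1.05, limma adjusted p = 1.3e-09), while EP400 (0.71) and the scaffold TRRAP (0.40) rose. Of 17 genes of MYC protein turnover, 8 were higher and 6 lower at either dose, with medians of 0.043 and 0.12. PPP2R5A, a phosphatase subunit that promotes MYC degradation, rose by 0.94 at 1.5 µM, the kinase GSK3B, which marks MYC for the ubiquitin ligase FBXW7, by 0.91, and the ubiquitin ligase HUWE1 by 0.73. Of 7 tested regulators of MYC mRNA, 0 were higher and 2 lower at 0.5 µM, and 2 were higher and 4 lower at 1.5 µM (medians -0.064 and -0.14). They include PVT1 and CNBP (-0.47 at 1.5 µM), which binds the MYC promoter, and the mRNA-binding protein IGF2BP3 (-0.15), whose call was lost on FPKM values and without the 3 H19-high libraries (adjusted p up to 0.132).

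Other bHLH leucine zipper genes have products that bind E-boxes. Of 8 tested, 3 were higher and 5 lower at either dose, with medians of -0.18 and -0.31, beside 70% and 73.1% of all genes past the test in either direction. MITF, a factor of pigment cells present here at a low level, averaged 134 ± 20.3 normalized counts at 1.5 µM and 63.8 ± 8.97 in DMSO (log2 fold change 1.06). TFAP4, which MYC is known to activate, fell to 1565 ± 31.8 at 1.5 µM, against 3171 ± 16.7 in DMSO (-1.02, limma adjusted p = 1.33e-09), and TFEB, a regulator of lysosomal genes, fell by 0.84 on the log2 scale. No list was tested as a set, and the medians stand against -0.010 and -0.0030 over all tested genes.

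**Figure D5:**
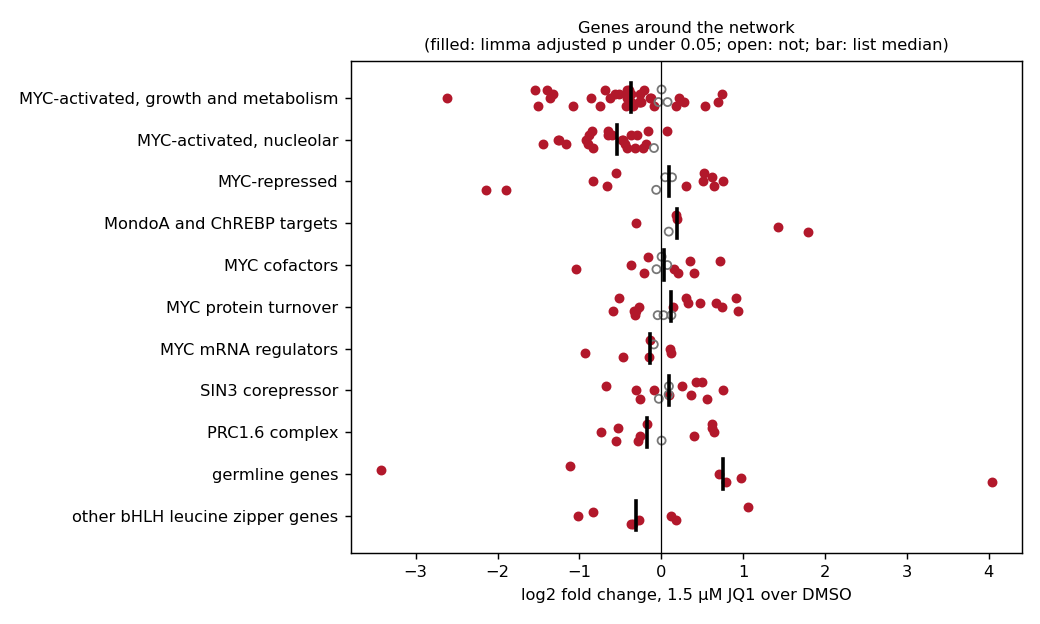
Log2 fold changes at 1.5 µM JQ1 over DMSO for the genes of 11 lists around the network (filled points pass limma at an adjusted p of 0.05, open points do not, bars mark list medians). The nucleolar list lies to the left with a median of -0.54 and 22 of 24 genes lower, whereas the MYC-repressed, cofactor and turnover lists spread to both sides of 0.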

How the data were processed

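The data are 9 RNA-seq libraries, 3 for each of DMSO, 0.5 µM JQ1 and 1.5 µM JQ1, from cells harvested after 24 h. Per the labels, libraries were stranded and made from total RNA with a TruSeq kit. Per the submitters' processing notes, cutadapt, STAR and RSEM were used with the build hg19. Information on their versions, the annotation release and the use of strand was not given in the sources used here. The deposited normalized counts are a signal, the gene counts of a library over a single size factor, and multiplying back gave whole reads for 100% of values (tolerance 0.001). The authors also deposited FPKM values for 57820 genes. Each of the 17518 genes in the count table had at least 0.5 CPM in at least 2 libraries. No file held columns of other samples.

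The main test was limma 3.58.1 (R 4.3.3) with a trend, fitted to log2(normalized count + 1) of the 9 libraries together without a replicate block, for genes with at least 10 normalized counts in at least 3 libraries. Two-sided p-values were adjusted by Benjamini-Hochberg over all genes of a comparison, and 0.05 was the threshold. There was no spike-in, so changes are relative to the other genes, and changes of low counts are understated. Count tests on the whole reads called 12240, 12897 and 2283 genes with edgeR 4.0.16 and 12161, 12808 and 2853 with DESeq2 1.42.0 (0.5 µM over DMSO, 1.5 µM over DMSO, 1.5 µM over 0.5 µM), beside 12255, 12806 and 2233 with limma. The procedure was checked on simulated data.

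The network genes, lists, tests and alternatives were chosen with earlier results of these data known. Named are all network genes and partners, annotated neighbours and the 3 genes nearest in profile to MYC, MYCL and MXD4 (clone names passed over). From each list, up to 3 genes past the test at 1.5 µM are named, by size of change. These had a mean of at least 20 normalized counts. UBTF, ODC1, PKM, PTMA, CDKN1B, CDKN2B, PKLR and KLF10 were named after their values were seen. The 23 alternatives varied the pseudocount (0.1, 5), the filter (none, 50), the unit (FPKM + 0.1, at least 0.5 in 3 libraries), the scaling (TMM, upper quartile), the model (no trend, library weights, edgeR, DESeq2, only the 6 libraries compared, replicate block) and the libraries (each left out, the 3 H19-high libraries left out). Neighbours were taken from GENCODE release 29 and promoters from RefSeq. Both are on another build than the files, so the only coordinates given are those of the printed promoter sequences, on GRCh38.p14.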

Additional observations from a re-analysis of the deposited data

Results flagged for a closer look

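For 5 network genes the effect of JQ1 differed between the doses by the test of the difference itself (limma, 1.5 µM over 0.5 µM, log2 fold change). Of all tested genes 12.7% passed that test, and 33.7% had dose groups that did not overlap. The difference was 0.23 for MXD4, higher in 3 of 3 libraries at 1.5 µM than in every library at 0.5 µM, and 0.22 for MGA, higher in 3 of 3. It was -0.19 for MYC, -0.16 for MXI1 and -0.17 for MLX, each lower in 3 of 3 libraries. The calls of MXI1, MLX and MGA were lost under 12, 11 and 7 of 23 alternatives. Among these was the removal of any 1 library of the 1.5 µM group. Without the 3 H19-high libraries, which leaves 1 library at 1.5 µM, none of the 5 passed, while the differences were 0.24 for MXD4, 0.26 for MGA, -0.17 for MYC, -0.12 for MXI1 and -0.21 for MLX.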

How the results depend on the processing

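Against DMSO, the 10 network genes kept their direction under all 23 alternatives, and their side of the threshold in 214 of 230 values at 0.5 µM and 228 of 230 at 1.5 µM. The exceptions were MAX, MNT and MGA. Between the doses 195 of 230 values kept it. MXD1 ranged from -0.000471 (adjusted p = 0.998, without 0.5 µM replicate 2) to 0.107 as single libraries were left out, and MNT from -0.0728 to 0.0397 (adjusted p = 0.577, without 0.5 µM replicate 3); MNT was 0.0329 (adjusted p = 0.839) without the 3 H19-high libraries. For the neighbour CHURC1-FNTB at 0.5 µM, 0.04 became -0.0120 on FPKM, -0.0144 with upper-quartile scaling, -0.0281 with edgeR, -0.0245 with DESeq2 and -0.361 to 0.242 as single libraries were left out. SGSM2 became -0.0492 at 0.5 µM and -0.243 at 1.5 µM on FPKM and -0.0121 at 1.5 µM with upper-quartile scaling. The number of genes that differed between the doses was 2233, and became 892 on FPKM, 5238 with library weights, 1123 with only the 6 libraries compared and 90 without the 3 libraries. Leaving out 1 library at a time gave 995 to 3217, with 1483 without DMSO replicate 2 and 1320, 995 and 1024 without 1.5 µM replicates 1, 2 and 3. The cause of these moves was not tested, and leaving libraries out also leaves fewer of them to compare. The antagonist ratio became 0.296, 0.570 and 0.668 (DMSO, 0.5 µM, 1.5 µM) without MGA, 0.622 at 0.5 µM and 0.737 at 1.5 µM over MYC alone, and 0.696 at 1.5 µM without the 3 libraries. Under the replicate block, 12329, 12852 and 2030 genes passed. Same-numbered libraries share only a number: the correlations of their deviations ran from -0.385 to 0.131, so they were not treated as paired, and under the block the dose differences of MXI1 (adjusted p = 0.0539) and MLX (adjusted p = 0.0646) did not pass. MYCL, MXD3 and MXD1 had the fewest reads of the network genes, so counting error weighs most on them.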
